A study of Mus musculus with 2 samples.

Results

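Interferon-stimulated neutrophils were rare cells of ulcerated mouse skin, 224 of 11039 neutrophils in 2 single-cell libraries. They were chosen by measured UMIs, each of which counts 1 captured RNA molecule. Of 31621 barcodes 31252 were kept, those with 200 or more genes and no more than 15% of UMIs from mitochondrial genes. A neutrophil had at least 2% of its UMIs from S100a8 and S100a9, a UMI of at least 2 of the 5 genes Csf3r, Cxcr2, G0s2, Hdc and Retnlg, and at most 1 UMI of C1qa and Csf1r together. Neutrophils with at least 5 UMIs of Ifit1, Ifit2, Ifit3 and Rsad2 together were called interferon-stimulated, and these 4 are named the rule genes below.

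One library was made from skin labelled wild type, and the other from skin labelled as overexpressing Has2, which makes hyaluronan, throughout the body. Both were lesional skin labelled with 15 consecutive days of tape stripping at 40 to 50 strips a day. The text of that label starts after an earlier step, which is not known here, and the labels name neither the promoter of the transgene nor the number, age or sex of the mice. The wild-type library held 16999 barcodes with 143875454 UMIs, and the other 14622 barcodes with 134917708 UMIs. With 1 library per genotype there was no replicate check and no test, and genotype, animal and preparation cannot be told apart. Has2 itself was at 71.5 CPM (UMIs of a gene per 1000000 UMIs, over the cells summed) over all kept wild-type cells and 85.8 CPM over those of the other library. The members held 13 wild-type Has2 UMIs in 2 cells and 8 UMIs in 1 cell of the other library, so the label was not checked in them. The construct is not described in the labels, and a transgene without the annotated 5′ end would not be counted, which limits Has2 as a check of the label. The second library is referred to below as labelled Has2-transgenic.

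Type I interferons are secreted proteins that bind the receptor chains Ifnar1 and Ifnar2, which most cells carry. The kinases Jak1 and Tyk2 then activate transcription factors, among them Stat2, which acts with Irf9 at a DNA motif, the interferon-stimulated response element (ISRE), in the promoters of the responding genes. Neutrophils are short-lived phagocytes that enter inflamed skin from blood, and a subset with this response is known from many inflamed tissues. The rule genes are among its usual markers: Rsad2 encodes viperin, an antiviral radical enzyme, and the Ifit genes encode proteins that bind viral RNA.

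The promoters of 3 of the 4 rule genes held the core of the ISRE, here GAAANNGAAA or its reverse TTTCNNTTTC, in the 250 bases before the gene start. The stretches below show that core in capitals for these genes, for the ubiquitin-like modifier Isg15, the helicase Ddx60, which aids the sensing of viral RNA, the schlafen family gene Slfn5, the immunity GTPase Irgm1 and the MHC class I light chain B2m, each of which is described below. They are read 5′ to 3′ on the strand of the gene and are from RefSeq on build GRCm38.p6 (positions in the table's build), matched by symbol since the counts were made on GRCm39.
Rsad2, minus strand, chr12:26456528-26456587: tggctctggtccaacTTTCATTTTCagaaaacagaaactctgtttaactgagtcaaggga
Ifit1, plus strand, chr19:34640770-34640829: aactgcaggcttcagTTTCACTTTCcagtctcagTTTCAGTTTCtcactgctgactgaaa
Ifit3, plus strand, chr19:34583358-34583431: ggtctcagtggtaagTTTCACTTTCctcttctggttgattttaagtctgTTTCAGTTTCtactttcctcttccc
Isg15, minus strand, chr4:156200852-156200911: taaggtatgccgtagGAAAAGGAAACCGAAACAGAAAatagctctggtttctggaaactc
Ddx60, plus strand, chr8:61928019-61928086: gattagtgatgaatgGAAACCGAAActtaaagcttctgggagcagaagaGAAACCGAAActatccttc
Slfn5, plus strand, chr11:82951932-82951991: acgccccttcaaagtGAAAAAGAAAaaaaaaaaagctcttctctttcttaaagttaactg
Irgm1, minus strand, chr11:48871421-48871465: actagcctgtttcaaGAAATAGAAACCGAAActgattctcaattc
B2m, plus strand, chr2:122147533-122147592: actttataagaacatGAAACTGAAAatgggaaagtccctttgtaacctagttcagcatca

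Isg15 held 3 overlapping matches and Ifit1, Ifit3, Ddx60 and Irgm1 held 2 each. The core began 120 bases before the gene start in Rsad2 and between 78 and 66 bases before it in Isg15. The window of Ifit2 had no match, which says only that these letters are not in it. Of 27025 gene symbols with a promoter in RefSeq, 3.46% held the core. The same count in the genes that were higher in the members is given below.

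The rule genes contributed unequally to the choice, and their values are a description of it. Rsad2 gave 1363 of 1891 rule UMIs (72.1%) in the wild-type members and 608 of 723 (84.1%) in the other library, from 146 of 147 and 76 of 77 cells. Ifit1 gave 320 UMIs in 86 cells and 76 UMIs in 29 cells. The other 2 genes were sparse, with 127 and 22 UMIs of Ifit3 and 81 and 17 of Ifit2, of which 1 cell held 40.7% and 88.2%. Reads of Ifit3 can be confused with its near-identical copy Ifit3b, so both are uncertain. Rsad2 had a median of 6 UMIs per member in both libraries, which by itself is above the limit of 5. No Ifit UMI at all was found in 55 wild-type members (37.4%) and 42 of the others (54.5%). The sum over the rule genes had a median of 8 UMIs and a maximum of 159 in the wild-type library, and 7 and 30 in the other. In other neutrophils Rsad2 was at 45.1 and 63.9 CPM, with a UMI in 9.99% and 9.45% of cells.

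Acod1 and Il1r2, neutrophil genes outside the rule, were far higher in members than in cells with macrophage markers of the same libraries. Acod1, which makes itaconate, had a UMI in 98.0% of wild-type members and 98.7% of members of the other library, against 95.8% and 95.6% of other neutrophils. Cells with at least 3 UMIs of the macrophage genes C1qa and Csf1r had one in 30.0% and 23.1%, although their median depth was 9829 and 8268 UMIs. Acod1 stood at 4340 and 5502 CPM in members and 192 and 143 CPM in those cells. Il1r2, the decoy receptor for interleukin-1, stood at 798 and 1486 CPM in members, 581 and 963 CPM in other neutrophils and 103 and 72.5 CPM in the macrophage-marked cells. The chemokine Cxcl2 did not separate the types, at 14159 and 22235 CPM in members and 13161 and 10363 CPM in macrophage-marked cells. Macrophage markers, 8 genes of which the rule limits C1qa and Csf1r, summed to 134 and 188 CPM against 94.7 and 155 CPM in other neutrophils. Monocyte markers stood at 612 and 252 CPM against 339 and 226 CPM. The wild-type UMIs lay in 82 members, and Ly6c2 gave 327 of 353, while Ccr2 had 1 UMI and 0 UMIs. Plasmacytoid dendritic cell markers stood at 198 and 80.5 CPM against 61.6 and 30.3 CPM, in 42 and 13 members. Bst2, which interferon also induces, gave 86 of 114 and 13 of 15 of these UMIs, and Siglech had none. Their part in the results was not tested. The T cell list summed to 3.47 and 0 CPM, with no UMI of Cd3e, the dendritic cell list to 20.8 and 42.9 CPM, the endothelial list to 22.5 and 21.5 CPM and the keratinocyte list to 0 and 10.7 CPM. Mast cell and eosinophil markers were at 0 in both.

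The fibroblast, erythroid and platelet lists were each higher than in other neutrophils in 1 library, with most UMIs in few cells, and lower in the other library. Fibroblast markers were at 881 CPM in wild-type members against 377 CPM in other neutrophils, and 469 of their 508 UMIs lay in 6 cells, all among the 8 wild-type members with 8000 or more UMIs. In the other library they were at 129 against 388 CPM. Erythroid genes were at 4087 against 448 CPM in the library labelled Has2-transgenic, where 1 member held 760 of 762 UMIs, and at 8.67 against 523 CPM in the wild-type library. Platelet genes were at 269 against 104 CPM in the wild-type library, where 1 member held 76.8% of the UMIs. In the other library they were at 26.8 against 52.4 CPM. In all, 3 wild-type members and 1 other gave at least 1% of their UMIs to the markers of another type. The doublet scores marked 3 and 1 members. The part of these cells in the results was not tested beyond the counts without them given below. The libraries shared 79 barcodes, of which 1 was a member in each.

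Members made up 147 of 6181 wild-type neutrophils (2.38%, 95% interval 2.01 to 2.79) and 77 of 4858 neutrophils of the library labelled Has2-transgenic (1.59%, 1.25 to 1.98). The ratio of the shares was 0.667 (0.499 to 0.884). Intervals are exact Clopper-Pearson intervals and cover counting error only. Depth differed in the same direction: members had medians of 3290 and 2314 UMIs, other neutrophils of 3111 and 2104, and the rule asks for a fixed number of UMIs. At 1000 to 2000 UMIs the shares were 1.35% and 1.52%, and at 2000 to 4000 UMIs 2.42% and 1.77%, a ratio of 0.729 (0.497 to 1.06). At 4000 to 8000 UMIs they were 2.76% and 1.28%, the latter from 3 members, and from 8000 UMIs 5.76% and 3.85%, from 8 members and 1. Below 1000 UMIs 1 of 204 wild-type neutrophils and 0 of 199 others were members, which allows a share of up to 1.51%.

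Definitions by a share of UMIs or by a draw of equal UMIs gave the other direction. Of the depth bins above only that of 1000 to 2000 UMIs did so, with a ratio of 1.12 (0.532 to 2.58). With rule genes at 0.1% or more of the UMIs of a cell, the shares were 3.38% and 3.91%, a ratio of 1.16 (0.945 to 1.42). With 1000 UMIs drawn from each cell and at least 2 of them from rule genes, they were 2.58% and 2.88%, a ratio of 1.12 (0.879 to 1.42). Both intervals include 1. A share of UMIs lets a shallower cell pass with fewer rule UMIs, so of these definitions only the draw sets depth equal. Retnlg, a secreted resistin-like protein gene that helps define the neutrophils, had 10 or more UMIs in 78.9% of wild-type members but 20.8% of members of the other library. Other neutrophils had 77.0% and 28.1%. Among neutrophils with 10 or more Retnlg UMIs the shares of members were 2.44% and 1.18%, a ratio of 0.483 (0.267 to 0.818), and among the rest 2.19% and 1.74%, a ratio of 0.797 (0.509 to 1.27). Within 2000 to 4000 UMIs these ratios were 0.503 (0.231 to 0.982), from 69 and 10 members, and 0.794 (0.454 to 1.41). The direction between the libraries thus depended on how the share was defined.

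**Figure D1:**
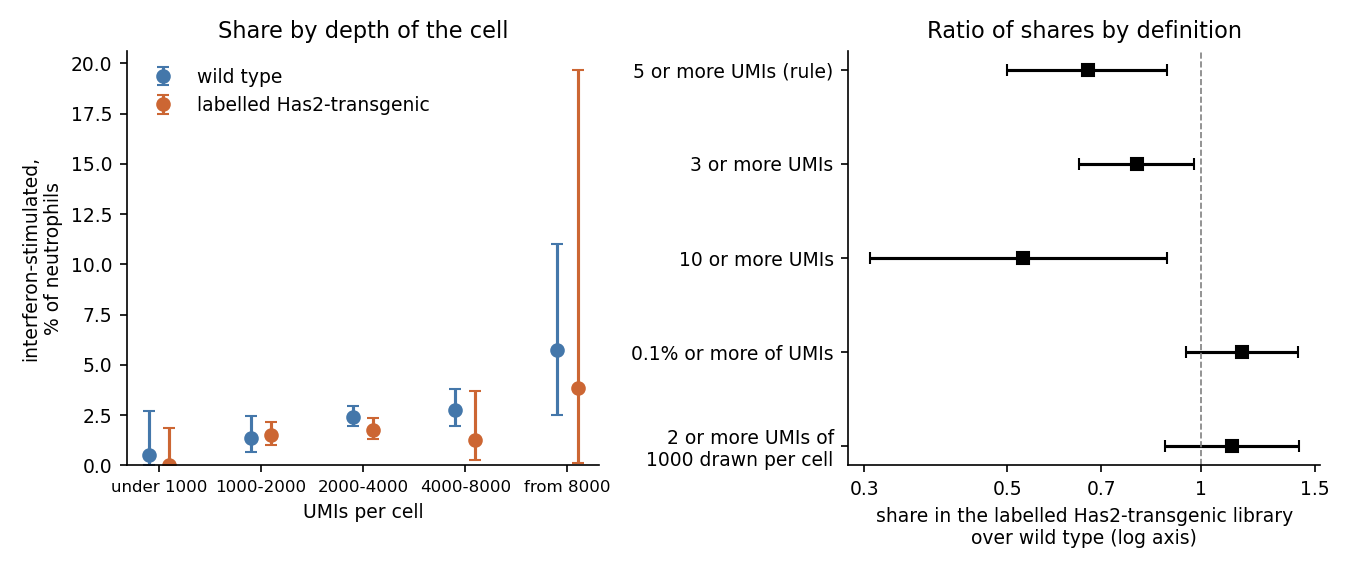
Left, members as percent of neutrophils in bins of UMIs per cell (points, with 95% exact intervals for counting error) in the wild-type library and the library labelled Has2-transgenic; the intervals overlap in every bin. Right, ratio of the shares on a log axis under 5 definitions, which runs from 0.528 with 10 or more rule-gene UMIs to 1.16 with 0.1% or more of UMIs.

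The limit of 5 UMIs divided a gradient. Of the wild-type neutrophils 5332 (86.3%) had no rule UMI and 702 had 1 to 4, and in the other library 4253 (87.5%) had none and 528 had 1 to 4. Isg15, which is outside the rule, was at 247 and 323 CPM in cells with no rule UMI, at 752 and 1047 CPM with 1 to 4, and at 2409 and 2738 CPM with 5 to 9. In cells with 20 or more it reached 5500 CPM in 24 wild-type cells and 6825 CPM in 6 cells of the other library. Isg15 was thus higher in each bin than in the one before it in both libraries. Not every gene was. In the library labelled Has2-transgenic Slfn5 and Trim30a were at 683 and 842 CPM with 10 to 19 rule UMIs. With 20 or more they were at 464 and 530 CPM there. In the wild-type library both rose, from 296 and 615 CPM to 1029 and 1265 CPM. The 56 antiviral genes, summed, were at 17570 CPM in the 38 wild-type cells just outside the rule, with 4 rule UMIs, and at 22120 CPM in the 32 cells just inside it, with 5. In the library labelled Has2-transgenic they were at 20350 CPM in 30 cells just outside and 21016 CPM in 21 cells just inside. In cells with no rule UMI this sum was at 10505 and 7664 CPM in the 2 libraries. Single genes could differ more at the limit. Isg15 was at 1027 CPM just outside and 2099 CPM just inside in the wild-type library, but at 2186 and 2055 CPM in the other. Members chosen by Rsad2 alone carried the other genes as well, with Isg15 at 1613 and 2412 CPM, against 3765 and 4188 CPM in members with an Ifit UMI. Il1b, the interleukin-1 beta gene, showed no such order, with 5001, 4103 and 4454 CPM in wild-type cells with no, 1 to 4 and 5 to 9 rule UMIs. With 20 or more it was at 3333 CPM in wild-type cells and 14843 CPM in the 6 cells of the other library.

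**Figure D2:**
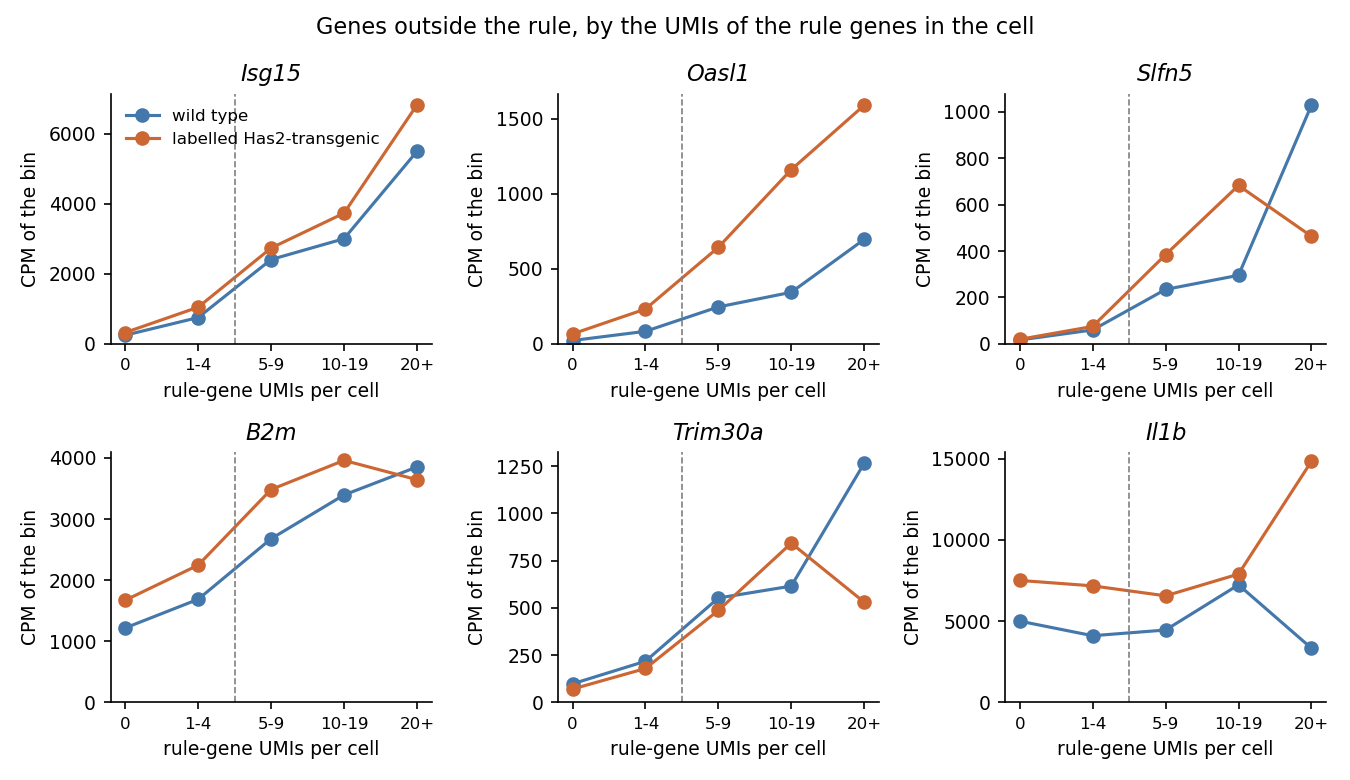
CPM of 6 genes outside the rule (y axis, from 0) in neutrophils grouped by their UMIs of the rule genes (x axis), with the limit of the rule as a dashed line and 1 line per library. Isg15 goes from 247 to 5500 CPM in the wild-type library and from 323 to 6825 CPM in the other, while Il1b has no common order.

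Single members expressed many antiviral genes together. With 1000 UMIs drawn from each cell, members had a UMI of a median of 12 of the 56 antiviral genes in the wild-type library and 10 in the other, and other neutrophils had 4 and 3. The middle 50% of members ran from 9 to 16 genes and from 7 to 15 genes, those of other neutrophils from 3 to 6 and from 2 to 5. The draw left out 1 wild-type member, 203 other wild-type neutrophils and 199 of the other library. Without the draw the medians were 21 and 16 genes in members and 7 and 5 in the others. The ranges overlapped: 1 wild-type member had none of the genes among its 1000 UMIs, and the highest other neutrophils had 17 and 20.

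**Figure D3:**
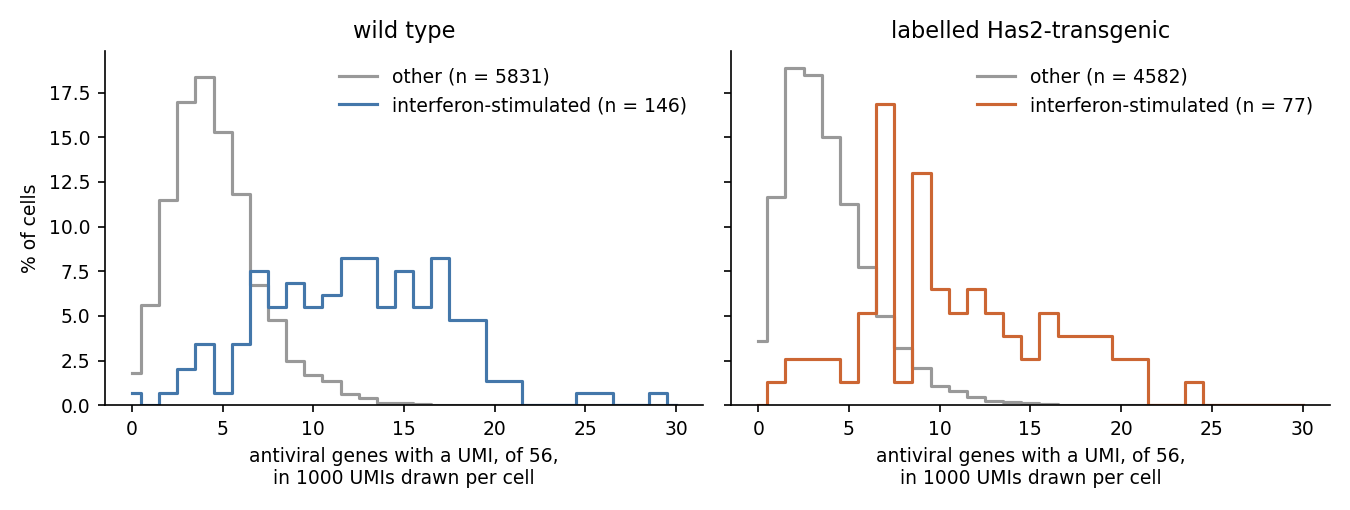
Percent of cells (y axis) by the number of 56 antiviral genes with a UMI among 1000 UMIs drawn per cell (x axis), for members (146 and 77 cells) and other neutrophils (5831 and 4582 cells). Members lie to the right, with medians of 12 and 10 against 4 and 3, and the distributions overlap.

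Levels in members were next set beside those in the other neutrophils of the same library. Because the rule chose the cells by 4 of their genes, this contrast is a description. Genes entered with at least 50 UMIs over all neutrophils in each library, leaving out the rule genes and the genes used to define neutrophils. Of 6547 such genes 132 were at least 2-fold higher in members in both libraries, which is 2.02% of those tested. At most 0.5-fold in both were 217 (3.31%). Over all genes the median log2 ratio, with 0.5 counts added, was -0.02 and 0.01. For 106 of the 132 higher genes both intervals lay above 1, but for only 11 of the 217 lower genes did both lie below 1, and 167 of these had no UMI in the members of a library. A gene of median level was expected at 13.1 and 4.06 UMIs in the members, so lower levels were hardly measurable here. Among the 1923 genes with at least 10 UMIs expected in the members of each library, 31 were higher (1.61%) and 10 lower (0.52%). Of the 132 higher genes 61 belong to the lists of antiviral effectors, interferon-gamma linked genes and class I presentation or to the smaller interferon lists below. Of the 6547 genes, 44, 10 and 15 were in the first 3 lists. Sensors, receptors with JAK-STAT and feedback inhibitors had 12, 15 and 9.

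Antiviral effectors were the largest group. Of 56 genes 44 passed the minimum, 40 were higher in both libraries and 36 were at least 2-fold higher in both, with a median log2 ratio of 2.59 and 2.44. Isg15 was at 3085 CPM in wild-type members against 313 CPM, 9.85-fold (9.34 to 10.4), and at 3304 against 413 CPM in the other library, 8.0-fold (7.35 to 8.71). It had a UMI in 87.1% and 79.2% of members, against 31.6% and 28.4% of other neutrophils. Among genes with at least 100 UMIs over all neutrophils of each library Slfn5 was the furthest apart by the library with the smaller ratio, at 388 against 22.3 CPM, 17.4-fold (14.8 to 20.5), and at 461 against 26.3 CPM, 17.6-fold (13.6 to 22.4). About the same share of members had it, 47.6% and 45.5%, against 4.67% and 4.39% of the others.

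The other genes at the top of that order had related roles. Ddx60 was 14.2- and 13.2-fold higher in wild-type members and those of the other library. Zbp1, a sensor of Z-form nucleic acids that can start necroptosis, was 9.86- and 10.1-fold higher. Oasl1, a relative of the enzymes that activate RNase L, was at 347 against 30.2 CPM and 842 against 86.4 CPM, or 11.5- and 9.75-fold. Oas2, one of those enzymes, was 8.81- and 16.8-fold higher. The ADP-ribosyltransferase genes Parp9 and Parp14 were 8.62- and 8.25-fold and 12.8- and 8.05-fold higher. Epsti1 (9.03- and 13.4-fold) and Ifi35 (8.58- and 9.30-fold) stood in the same order, as did Ifih1 and Rigi, given below.

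Not every antiviral gene separated the cells. The membrane restriction factor Ifitm3 did, at 3367 against 1198 CPM and 2333 against 659 CPM, 2.81- and 3.54-fold. Its neighbour in the family Ifitm1 was at 4031 against 4520 CPM and 3974 against 3294 CPM, ratios of 0.892 (0.856 to 0.929) and 1.21 (1.12 to 1.30). The schlafen genes differed in the same way: Slfn4 was 3.34- and 3.61-fold higher and had a UMI in every wild-type member, but also in 87.0% of other wild-type neutrophils, and Slfn1 was 1.65- and 1.64-fold higher. Mx1, encoding a classic antiviral GTPase, had no UMI in any member, which allows 5.2 and 16.1 CPM. Cmpk2, the neighbour of Rsad2 on chromosome 12, was under the minimum over all neutrophils and had 90 and 16 UMIs in members, 156 and 85.8 CPM against 1.91 and 1.65 CPM in the others.

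**Figure D4:**
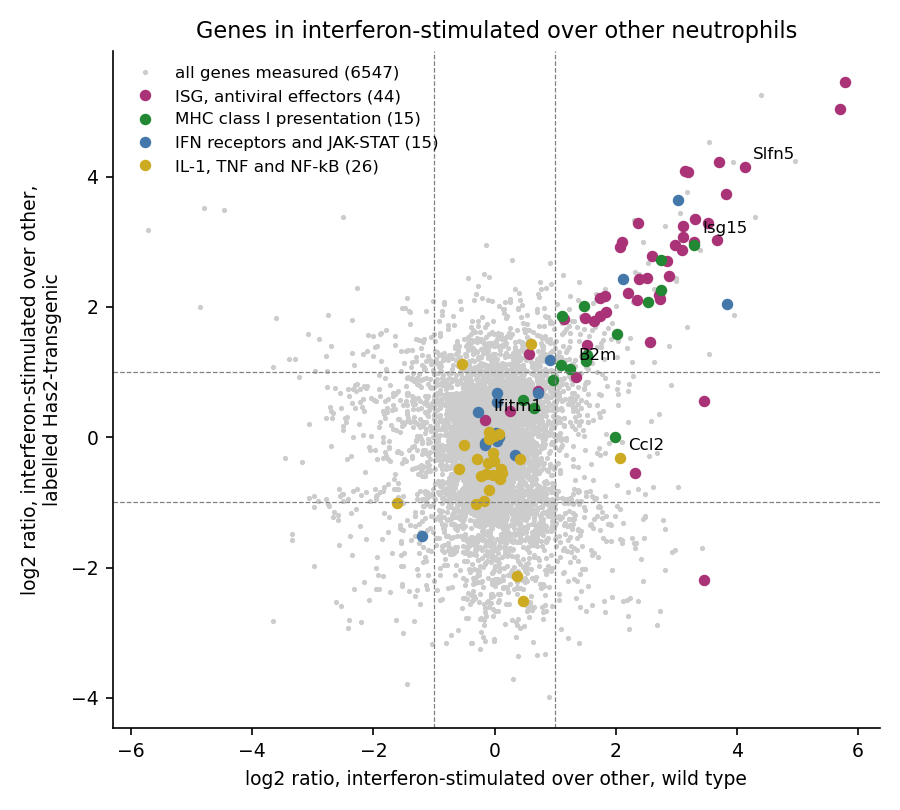
Log2 ratio of members over other neutrophils for 6547 genes (grey) and 4 gene lists (colours), wild type on the x axis and the library labelled Has2-transgenic on the y axis; dashed lines mark 2-fold. Of the antiviral genes 36 of 44 lie past 2-fold in both libraries, against 132 of 6547 genes in all.

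Of the sensors and adaptors that lead to interferon production, 12 of 19 were measured and 3 were at least 2-fold higher in both libraries, with a median log2 ratio of 0.20 and 0.78. These were the cytosolic RNA sensors Rigi, at 300.0 against 35.8 CPM and 295 against 27.3 CPM (8.37- and 10.8-fold), and Ifih1, at 210 against 15.2 CPM and 188 against 14.6 CPM (13.8- and 12.9-fold). The third was Irf7, the transcription factor that amplifies interferon genes, at 7.98- and 5.39-fold. The other 9 genes were not past 2-fold higher in both. Tlr4, the lipopolysaccharide receptor, was at 408 against 363 CPM and 375 against 370 CPM, and Tbk1, a kinase that activates interferon regulatory factors, at 1.05 (0.814 to 1.33) and 0.669 (0.381 to 1.09). Irf3, a transcription factor of interferon genes, was at most 0.5-fold in both, but from 2 UMIs and 0 UMIs, with a wild-type ratio of 0.339 (0.0408 to 1.24).

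Receptors and their signalling parts split in the same way. Of 15 genes measured 3 were at least 2-fold higher in both libraries, with a median log2 ratio of 0.04 and 0.38. The receptor chain Ifnar1 was at 104 against 117 CPM and 107 against 120 CPM, and Ifnar2 at 199 against 224 CPM and 182 against 197 CPM. Jak1 was at 1.26 and 0.820 and Jak2 at 1.02 and 1.04 times the other neutrophils. Tyk2 had 2 UMIs and 0 UMIs in members, a ratio of 0.351 (0.0422 to 1.28) in the wild-type library, and was too sparse to place. Of the genes whose products bind the ISRE, Stat2 was 14.3- and 3.81-fold higher, the latter from 6 UMIs, and Irf9 4.32- and 5.31-fold. Irf1, which also answers interferon gamma, was at 1.88 and 2.25.

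Feedback inhibitors showed 2 of 9 measured genes past 2-fold in both libraries. Usp18, which removes Isg15 from proteins and blocks Ifnar2, was at 125 against 5.97 CPM and 177 against 4.68 CPM, 20.9-fold (15.4 to 28.2) and 37.8-fold (23.6 to 59.7), and Nmi was 6.80- and 5.94-fold higher. Socs1 was at 1.47 (0.860 to 2.34) and 1.23 (0.395 to 2.91) and Socs3 at 1.07 and 0.935. The SOCS proteins inhibit the receptor kinases.

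Genes often linked to interferon gamma were higher as well. Of 24 genes 10 passed the minimum, 9 were higher in both libraries and 6 were past 2-fold in both, with a median log2 ratio of 3.46 and 1.79. With 1000 UMIs drawn per cell 1 was past 2-fold in both, but only 4393 genes passed the minimum then, against 6547 without the draw. How many of the 10 still passed is not given here. The immunity GTPase Irgm1 was at 102 against 6.71 CPM and 118 against 6.42 CPM, 15.3- and 18.4-fold. The guanylate-binding protein gene Gbp2 was at 428 against 47.5 CPM but 113 against 35.6 CPM, 9.02- and 3.16-fold, and Gbp7 was 11.5- and 22.8-fold higher from 56 and 25 UMIs. Cxcl10, which draws T cells, was at 428 against 27.6 CPM and 85.8 against 24.0 CPM. Of its wild-type UMIs 1 cell held 46.6%, and the level without members of 8000 or more UMIs was 228 CPM. It had a UMI in 14.3% and 6.49% of members only. Cd274, the checkpoint ligand PD-L1, was at 1.46 and 1.44 times the other neutrophils, and Ciita, the regulator of class II genes, had no UMI in members.

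Class I presentation differed by less. Of 19 genes 15 were measured, 13 were higher in both libraries and 11 were past 2-fold in both, with a median log2 ratio of 1.51 and 1.26. Without the top cell of each gene 6 were past 2-fold in both. That setting kept the UMI totals, and the median log2 ratio over all genes fell to -0.235 and -0.499 in it. B2m was at 3041 against 1280 CPM and 3609 against 1743 CPM, 2.38-fold (2.26 to 2.49) and 2.07-fold (1.92 to 2.24). The class I heavy chains H2-K1 (1.95- and 1.84-fold) and H2-D1 (1.39- and 1.48-fold) stayed under 2-fold, while the non-classical H2-T23 was 2.78- and 4.02-fold higher. The peptide transporter gene Tap1 was 9.76- and 7.40-fold higher, and the immunoproteasome gene Psmb8 6.66- and 4.60-fold, from 50 and 10 UMIs.

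None of 21 interferon genes searched had a UMI in a member. In all kept cells 6 ligands had a UMI in the wild-type library and 8 in the other. Ifnb1, interferon beta, had 147 UMIs in 58 wild-type cells and 71 UMIs in 25 cells of the other library, of which 49 and 32 UMIs lay in cells with at least 3 UMIs of the macrophage genes C1qa and Csf1r, and 1 in a neutrophil. Ifng, interferon gamma, had 16 and 9 UMIs. A count of 0 in 147 and 77 members allows a share of cells with a UMI of up to 2.04% and 3.90%, and sets no limit on cells that express the gene below detection.

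None of the genes of 7 further lists, outside the interferon response, was past 2-fold higher in both libraries. Measured were 8, 19, 15, 26, 20, 20 and 14 genes, of which 4, 5, 4, 2, 1, 6 and 2 were higher in both. At most 0.5-fold in both were the granule gene Camp, from 1 UMI and 0 UMIs, and Il23a, given below. Median log2 ratios were 0.18 and 0.12 for neutrophil identity, -0.19 and -0.23 for granules and maturity, and -0.01 and 0.00 for ageing and tissue residence. They were -0.06 and -0.44 for the inflammatory list of interleukin-1, TNF and NF-kB, of which 9 and 5 of 26 genes were higher, -0.05 and -0.13 for oxidative stress, -0.09 and -0.02 for apoptosis and pyroptosis, and -0.00 and -0.13 for handling and immediate early genes. Il1b was at 4860 against 4883 CPM and 7546 against 7467 CPM. Tnf was at 690 against 732 CPM and 767 against 1351 CPM, the latter a ratio of 0.568 (0.478 to 0.669). Ccl3, an inflammatory chemokine, was at 0.668 and 0.714. Casp8, which triggers apoptosis, was at 2.37 and 1.42. The early response genes Fos (0.725 and 1.67) and Jun (0.882 and 0.904) had no common direction past 2-fold.

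The 11 genes that were lower with both intervals below 1 were Csf3, Cxcl5, Saa3, Timp1, Il23a, Il33, Col3a1, Cd74, H2-Eb1, Tm4sf1 and Plet1. Csf3, the growth factor for neutrophils, was at 20.8 against 99.5 CPM and 16.1 against 134 CPM, from 12 and 3 UMIs. Saa3, an acute phase protein, was at 142 against 409 CPM and 96.5 against 267 CPM, 0.348 (upper bound 0.432) and 0.362 (0.573). Il23a, a chain of interleukin-23, was at 20.8 against 66.0 CPM and 85.8 against 178 CPM. The others in the list include collagen, class II and epithelial genes that other cell types are known to make, and the part of RNA from other cells in their levels was not tested. By the fixed order the lowest were Bgn, with no UMI in members against 11 and 18.9 CPM, Prickle3, Cxcl14, Il33, Cxcl5, Il1rl1, Csf3 and Hspb1, each with 0 to 12 UMIs in the members of a library. Has2 was counted among the higher genes, 4.75- and 9.54-fold, but its UMIs lay in 2 wild-type members and 1 other.

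Promoters of the higher genes held the ISRE core more often than those of other measured genes. Of the 132 genes 109 had an entry in the promoter table, and 29 (26.6%) held the core, as against 3.73% of 5154 measured genes with an entry. Of 161 lower genes with an entry 7 (4.35%) held it. The gamma-activated site, TTCNNNGAA, was in 9.17% of the higher genes and 7.06% of the measured genes. Of the interferon-gamma linked genes 7 of 15 held it. The core was in 17 of 45 antiviral effectors, 11 of 15 interferon-gamma linked genes and 3 of 17 class I genes with an entry, and in none of 19 genes of the inflammatory list. A match describes the letters of a window and shows no binding.

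Other cells with the rule genes were set beside the members. Outside the neutrophils 441 wild-type cells (4.14%) and 403 cells of the other library (4.22%) had 5 or more rule UMIs, so members were 25% and 16% of all such cells. Of cells with at least 3 UMIs of C1qa and Csf1r, 260 of 3964 (6.56%) and 209 of 3806 (5.49%) had 5 or more. Those cells were far deeper, with medians of 12708.5 and 11290 UMIs, so the same number of UMIs marks a smaller share of their RNA, and shares are not comparable with those of neutrophils. Because they entered at a smaller share of rule UMIs, lower CPM of genes that go with the rule genes is part of the selection, and the values are given side by side. Isg15 was at 714 and 694 CPM in them, against 3085 and 3304 CPM in members. Isg20, an RNA exonuclease, was at 33.3 and 25.2 CPM against 943 and 1341 CPM, and Slfn4 at 225 and 37.5 CPM against 5200 and 4264 CPM. Both were also high in other neutrophils, Isg20 at 182 and 250 CPM. The restriction factor Bst2 was at 432 and 538 CPM in the macrophage-marked cells with 5 or more rule UMIs, against 258 and 260 CPM in all macrophage-marked cells. In members it was at 149 and 69.7 CPM against 19.1 and 9.36 CPM in other neutrophils. Ly6e was at 1321 and 1654 CPM against 852 and 872 CPM in all macrophage-marked cells, and at 390 and 386 CPM in members against 125 and 113 CPM. Mx1, with no UMI in members, was at 29.1 and 30.8 CPM in them.

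Members of the 2 libraries were last compared with each other. Of 1775 genes with at least 50 UMIs over the members of both, 97 (5.46%) were at least 2-fold higher and 214 (12.1%) at most 0.5-fold in the second, labelled Has2-transgenic. With 1000 UMIs drawn per cell only 640 genes passed the minimum, of which 36 were higher and 28 lower. Of the 311 genes 54 were past 2-fold the same way in other neutrophils, 20 of them higher and 34 lower. The same share over all 1775 genes is not given here, so whether 54 is few or many was not tested. Of 41 antiviral effectors 15 were higher and 26 lower, where 50.6% of all 1775 genes were lower. Their median log2 ratio was -0.26 in members, against -0.01 over all genes, and -0.37 in other neutrophils. Past 2-fold higher was Oasl1 alone, with a ratio of 2.43 (1.96 to 3.01) in members and 2.86 in other neutrophils. At most 0.5-fold were 7 of the 41, where 12.1% of all 1775 genes were. These were Ddx60, Bst2, Slfn8, Ifitm6 and the neighbours Ifi205, Ifi211 and Mndal. Ifi205, a member of a family of DNA-binding proteins, was at 432 and 26.8 CPM, and 1 wild-type cell held 37.0% of its UMIs. For Ifi211, Mndal and Bst2 1 cell held 37.0%, 30.5% and 30.2% of the wild-type UMIs.

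The genes furthest higher in members of the library labelled Has2-transgenic were spread over many cells. Cxcr4, the receptor that returns ageing neutrophils to bone marrow, stood at 180 and 547 CPM, or 3.03-fold (2.29 to 4.03), from 53 and 45 cells, and at 2.43 in other neutrophils. Ppp1r15a, which restores translation after stress, stood at 257 and 729 CPM, or 2.84-fold, and 2.33-fold in other neutrophils. Ifit1bl2, whose promoter shares the ISRE window of Ifit1 on the opposite strand, stood at 93.6 and 263 CPM, or 2.81-fold (1.87 to 4.21). Tinf2 (3.21), F10 (3.13), Nisch (2.64), Smim14 (2.63) and Creg1 (2.57) made up the rest of the first 8, and in other neutrophils their ratios ran lower, at 1.45, 1.49, 2.10, 1.20 and 1.76. That these ratios differ was not tested. Of 15 granule and maturity genes 13 were lower in that library, where 50.6% of all 1775 genes were lower. Their median log2 ratio was -0.79 in members, against -0.01 over all genes, and -0.64 in other neutrophils. The collagenase gene Mmp8 was at 382 and 85.8 CPM, and Retnlg, one of the genes that define the neutrophils, at 16933 and 3641 CPM, or 0.215-fold (0.199 to 0.233) against 0.324-fold in other neutrophils.

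The genes furthest lower had most of their UMIs in the 8 deep wild-type members. Ccl7, a monocyte-attracting chemokine, was at 858 and 5.36 CPM, Ly6a at 579 and 5.36 CPM, the proteoglycan Dcn at 732 and 10.7 CPM and Mt2, a metallothionein, at 529 and 16.1 CPM. Members with 8000 or more UMIs held 94.8%, 94.3%, 96.9% and 94.1% of their wild-type UMIs, and without those cells the wild-type levels were 54.8, 40.0, 27.4 and 37.9 CPM. Gfpt2, Ifi211, Sdk1 and Ly6c1 were the rest of the last 8. The first 3 had no UMI in the members of the library labelled Has2-transgenic and were at least 15.4-, 14.9- and 10.9-fold lower against a limit of 3 counts. The deep cells held 93.7%, 79.7% and 99% of their wild-type UMIs. Without those cells Gfpt2 was at least 1.18-fold and Ifi211 at least 3.67-fold lower, and Sdk1 was below the limit in both. These genes passed the minimum of 50 UMIs through the wild-type members alone. Without cells of 8000 or more UMIs 62 of 1517 genes tested were at least 2-fold higher and 80 at most 0.5-fold. Without cells with markers of another type the counts were 80 and 155 of 1686, and with doublets removed 76 and 153 of 1661.

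**Figure D5:**
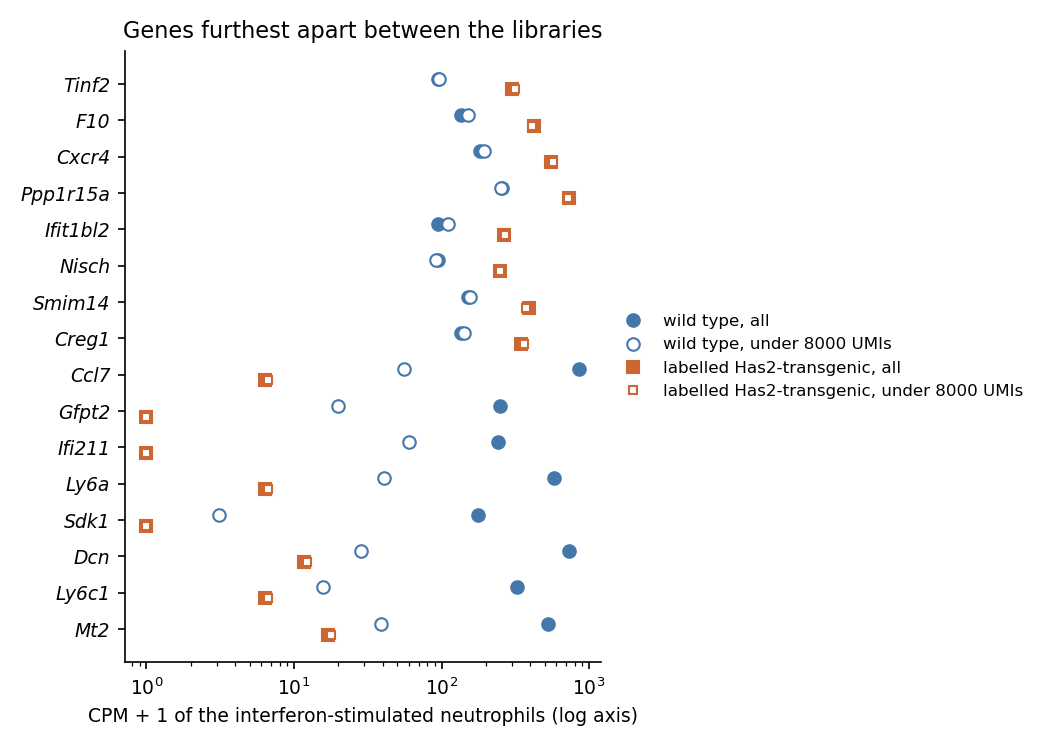
CPM + 1 on a log axis for the 8 genes furthest higher (top) and the 8 furthest lower (bottom) in members of the library labelled Has2-transgenic, in all members (filled) and in members under 8000 UMIs (open). The top 8 hardly move without the deep cells, while the wild-type levels of the bottom 8 drop, for Dcn from 732 to 27.4 CPM.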

How the data were processed

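Counts were made by the authors with Cell Ranger 9.0.1 on GRCm39, per the file headers and the submitters' processing notes, and deposited as raw UMI counts of 33696 genes in barcodes called as cells, from 10x 5′ chemistry per the labels. The steps below started from those counts. The members and the 14 gene lists were chosen with earlier results of these data known. UMIs were summed over the cells of a class and scaled to CPM, which is not corrected for gene length. Log2 ratios used 0.5 added UMIs. Genes entered the contrast with at least 50 UMIs over all neutrophils of each library, and the comparison between libraries with 50 UMIs over both libraries' members. The rule genes and the genes used to define neutrophils were not counted in either. A gene was counted from 2-fold or to 0.5-fold. No test was run, since each genotype had 1 library. Shares have exact Clopper-Pearson 95% intervals and ratios exact conditional ones. These cover counting error only, and a count of 0 was limited at 3 UMIs or cells. Named genes were the rule genes, list members needed to describe a list, the 12 highest and 8 lowest genes of the contrast by the ratio nearer 1, with at least 100 UMIs in each library, and the 8 highest and 8 lowest between libraries. Of the 12 highest, 1 is not reported here. Those ranks left out haemoglobin, immunoglobulin and receptor segment genes, sex-linked, ribosomal and mitochondrial genes, and unnamed gene models. Cxcl10 and Cmpk2 were named outside the ranks after their values were seen, as were the 11 lower genes with intervals below 1, Has2 and the macrophage-marked comparison. Scrublet (scanpy 1.11.5) marked 0% of barcodes at its automatic threshold and so did not work as a caller. No doublets were removed, and removing the 1156 and 855 barcodes with the highest scores was an alternative. Depth, filters, thresholds, scaling and the rule were varied in 40 alternatives, and 12 more were chosen after seeing the data. Scripts used Python 3.11.15, numpy 2.4.6, scipy 1.17.1 and pandas 2.3.3, and were tested on simulated data. Promoters of RefSeq on GRCm38.p6 ran from 250 bases before to 50 after the gene start.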

Additional observations from a re-analysis of the deposited data

Results flagged for a closer look

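For 5 genes the ratio of members over other neutrophils ran in opposite directions in the wild-type library and the library labelled Has2-transgenic, and the difference was not tested. Haemoglobin Hbb-bs was at 0.0172 and 9.06 times the other neutrophils, from 5 and 738 UMIs, and 1 cell held 99.7% of the latter. Haemoglobin Hba-a1 had a ratio of 0 in the wild-type library, at least 3.66-fold lower, and 11 in the other, where its 24 UMIs lay in 1 cell. The metallothionein gene Mt2 was at 3.01 and 0.258, with 51.2% of the wild-type UMIs in 1 cell and 3 UMIs in the other library. The proteoglycan gene Dcn was at 3.83 and 0.146, with 38.9% of the wild-type UMIs in 1 cell and 2 UMIs in the other library. The heat shock gene Hspa1b was at 2.08 from 16 wild-type UMIs, 68.8% of them in 1 cell, and at 0 in the other library, at least 1.28-fold lower.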

How the results depend on the processing

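The share of members changed direction between the libraries under some definitions. It was 3.38% and 3.91% (ratio 1.16, interval 0.945 to 1.42) with rule genes at 0.1% of UMIs. With cells thinned to 1000 UMIs it was 2.88% in the library labelled Has2-transgenic (ratio 1.12, interval 0.879 to 1.42). Both intervals include 1. The share was 4.09% and 3.25% from 3 rule UMIs and 0.858% and 0.453% from 10. Counts of genes depend on how many UMIs were asked for. Genes higher in members numbered 207 with members of 10 or more rule UMIs, 236 and 67 with minimums of 20 and 200 UMIs, 258 and 73 at folds of 1.5 and 3, and 31 with at least 10 UMIs expected. Genes lower numbered 669, 672, 26, 468, 100 and 10 under the same settings and 103 with other neutrophils within the members' depth range. They numbered 853 without the top cell of each gene, a setting that lowers ratios by construction because the UMI totals were kept. Genes tested numbered 8829 and 3573 with those minimums, 1923 with 10 UMIs expected, 5669 within the depth range and 6547 in the rest. Between libraries, higher genes numbered 36 with thinned cells, 60 with 10 or more rule UMIs, 235 and 20 with minimums of 20 and 200 UMIs, 280 and 13 at folds of 1.5 and 3, and 62 without cells of 8000 or more UMIs. Lower genes numbered 28 with thinned cells, 132 with rule genes at 0.1% of UMIs, 547 and 42 with those minimums, 386 and 110 at those folds, and 80 without the deep cells. The genes tested between libraries differed as well: 640 with thinned cells, 843 with 10 or more rule UMIs and 2142 with rule genes at 0.1% of UMIs. They were 3153 and 546 with those minimums, 1517 without the deep cells and 1775 at those folds. Higher genes were 37.8% of those counted in the contrast, 38.1% when scaled by the median ratio.

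Against other neutrophils, taken as the mean of both libraries, the median log2 ratio of antiviral effectors ran from 2.28 to 2.63 over all alternatives, that of interferon-gamma linked genes from 1.40 to 3.52 and that of class I presentation from 1.19 to 1.88. Lists near 0 changed sign under some settings: sensors to -0.05 and JAK-STAT to -0.03 without the top cell of each gene, ageing up to 0.05 and handling up to 0.19. Taking out the top cell kept the UMI totals, which by itself lowers ratios where members are few. The median over all genes in that setting was -0.235 in the wild-type library and -0.499 in the other. With thinned cells 4393 genes passed the minimum in the contrast. The receptor and JAK-STAT median was 0.47, and 1 feedback inhibitor and 1 interferon-gamma linked gene passed 2-fold. The interferon-gamma linked list had a median of 1.40, and -1.98 between libraries, where the main value was 0.23 from 7 genes. The number of list genes left in each alternative is not given here, so these medians may rest on few genes. With 10 or more rule UMIs the interferon-gamma linked list had 3.52 and -1.59 between libraries, class I presentation 1.88, neutrophil identity 0.077 and 0.80 between libraries, and 1 apoptosis gene passed 2-fold. With rule genes at 0.1% of UMIs the interferon-gamma linked list was at -0.65 between libraries and 6 class I genes passed 2-fold. Without the top cell of each gene that list was at 2.10 and 6 class I genes passed 2-fold. Without cells of 8000 or more UMIs the oxidative stress list was at 0.14 between libraries. Where genes with a count of 0 turned, the ratio of Daxx was 0 in the library labelled Has2-transgenic with thinned cells. That of Has2 was 0 without the deep wild-type cells and, in the other library, 0 with 10 or more rule UMIs and without its top cell. Apart from the lowering that comes with the top cell setting, the cause of each shift was not tested. No paired analysis was possible because each genotype had 1 library, and their labels carry different replicate numbers.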
